A study of Danio rerio with 18 samples.

Results

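The genes described here license origins of DNA replication, copy DNA or supply its building blocks: cdt1, mcm2, mcm3, mcm5, mcm7, pcna, pclaf, dna2 and tyms. They were found by name: every probe set whose single gene symbol in the platform annotation was one of these 9 symbols was taken, whatever its level. This gave 11 probe sets, out of 15502 that are not Affymetrix controls and out of 8793 genes with a symbol of their own on the array. mcm3 and dna2 had more than 1 probe set each, and the other genes had 1. No value was missing for them.

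Before a cell copies its DNA, each origin of replication is licensed: the origin recognition complex and Cdc6, with Cdt1, load the ring-shaped MCM helicase onto DNA, and Geminin holds Cdt1 back until the next cycle. In S phase the helicase opens the DNA, the PCNA clamp keeps the polymerases on the template, nucleases such as Dna2 trim the lagging strand, and thymidylate synthase makes the thymidine nucleotide. A zebrafish egg carries messenger RNA stored by the mother for the fast cleavage cycles, which run with little or no transcription, and the embryo's own genome takes over before gastrulation.

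The samples were whole wild-type embryos that had received an injected LNA at the 1 to 2 cell stage, a locked nucleic acid oligonucleotide whose modified sugars let it bind a small RNA tightly. The LNA was either directed against the microRNA mir-34 (anti-mir-34 embryos) or was a mock LNA (mock embryos), and RNA was taken at 1, 7 or 24 hours post fertilization (hpf) after keeping all embryos at 30C. The 6 groups had 3 arrays each, 18 in all, called biological replicates in the labels, and the embryos of 7 and 24 hpf had been freed from the chorion by hand. How many embryos made a sample and how clutches were shared is not stated in the labels, so p-values measure the spread between these samples.

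Values are log2 signals as deposited, with 1 value per probe set and array. The arrays were scaled to nearly the same median (3.68 to 3.69), so a difference is relative to the other transcripts of the same arrays and does not tell how much RNA an embryo held. In whole embryos, fewer cells of a type and less RNA per cell cannot be told apart. There are no detection calls, so low log2 levels may be background, and the size of a difference that starts from one is uncertain. Levels of different probe sets are not compared. By list medians the ages carried their stage markers. 11 of 11 maternal genes were on the array, with array medians of 8.23 to 9.03 at 1 hpf. At 7 hpf the maternal medians were still 6.47 to 7.06 in anti-mir-34 embryos and 6.62 to 7.16 in mock embryos. The median of 10 of 10 gastrula genes was 6.45 to 7.16 in anti-mir-34 embryos of 7 hpf and 4.98 to 6.68 in mock embryos of 7 hpf. The median of 11 genes of one-day tissues was 9.54 to 9.79 at 24 hpf. Not every marker was high at its age. The gastrula gene vent averaged 2.86 in anti-mir-34 and 2.35 in mock embryos of 7 hpf. The one-day gene myod1 averaged 3.87 in anti-mir-34 and 3.46 in mock embryos of 24 hpf. The GAPDH control probe sets, read as 3′ minus 5′ log2 signal, gave 0.99 to 1.77 at 24 hpf and -1.40 to 0.78 at the earlier ages; the part of this in the age differences was not tested.

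**Figure D1:**
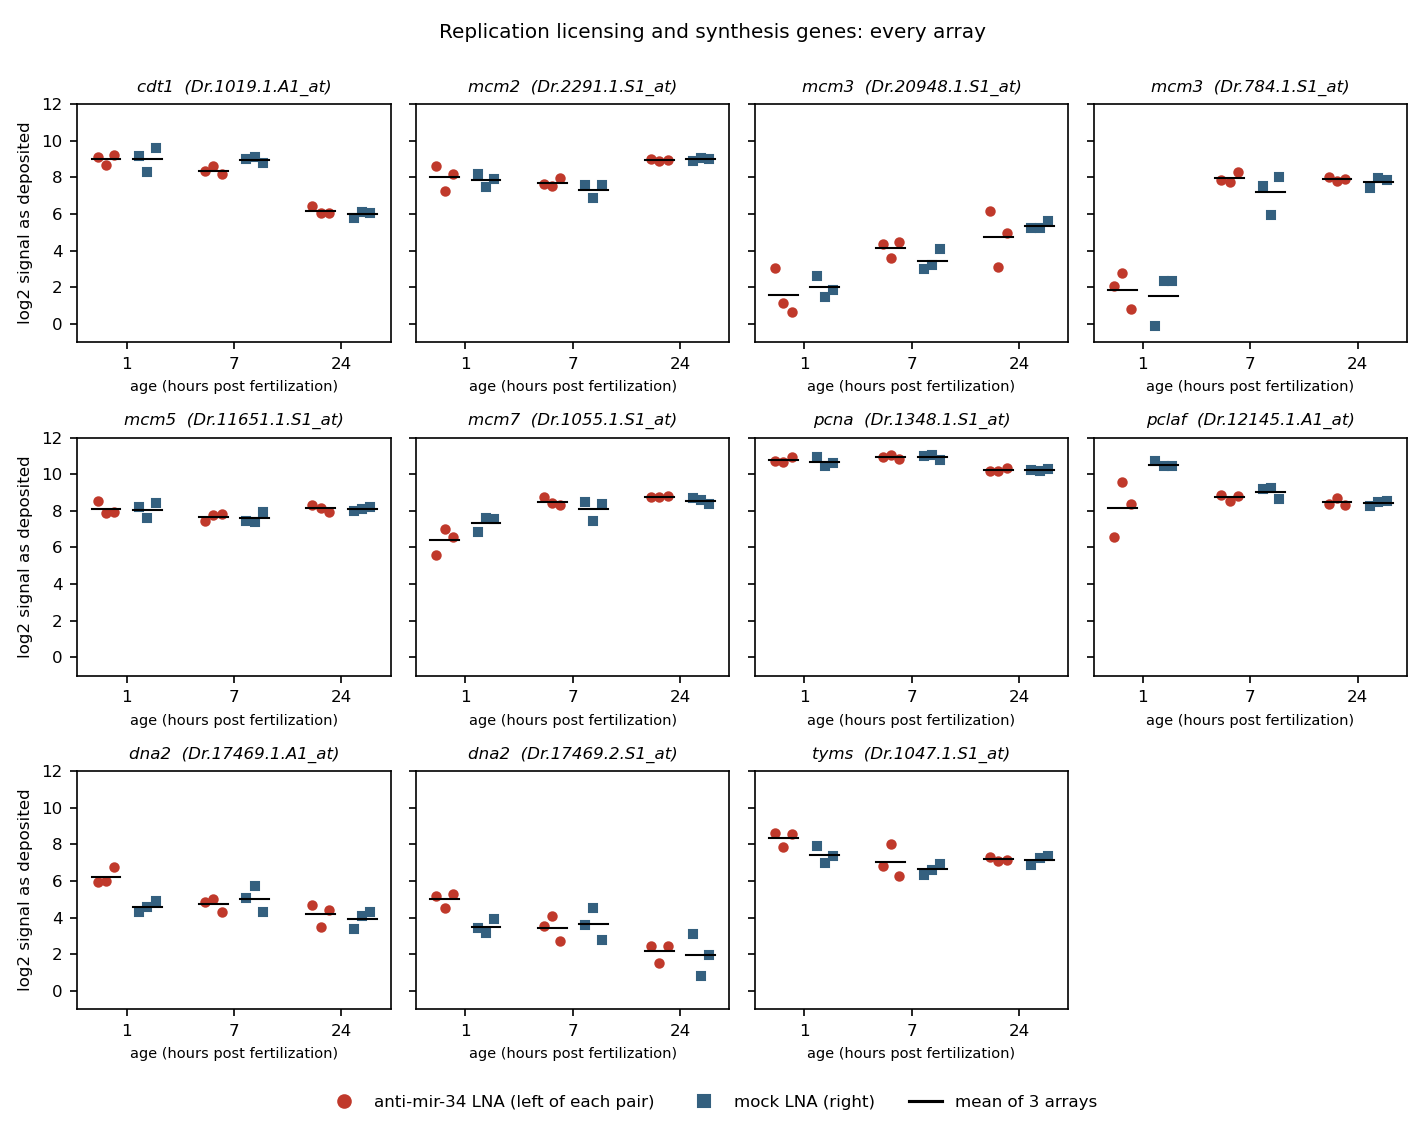
Log2 signal as deposited (vertical axis) of the 11 probe sets by age in hours post fertilization (horizontal axis). Circles on the left of each pair are the 3 anti-mir-34 arrays, squares on the right the 3 mock arrays, and bars are means of 3. cdt1 is lowest at 24 hpf, the brighter mcm3 probe set is lowest at 1 hpf, and the anti-mir-34 arrays of 1 hpf stand below the mock arrays for pclaf and above them for dna2.

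The message of the licensing factor cdt1, which brings the helicase to the origin, was present in the maternal stock, showed no step past the threshold between 1 and 7 hpf, and was much lower at 24 hpf. In anti-mir-34 embryos its log2 levels were 9.09, 8.67 and 9.24 at 1 hpf, 8.33, 8.61 and 8.16 at 7 hpf, and 6.45, 6.05 and 6.05 at 24 hpf. In mock embryos they were 9.14, 8.29 and 9.62 at 1 hpf, 8.97, 9.10 and 8.76 at 7 hpf, and 5.78, 6.09 and 6.05 at 24 hpf. Every array of 24 hpf lay below every array of the earlier ages, in both injections. The log2 difference of 24 minus 7 hpf was -2.18 ± 0.27 (SE) in anti-mir-34 embryos (limma adjusted p = 2.22e-06) and -2.97 ± 0.27 in mock embryos (adjusted p = 3.53e-08). The difference of 7 minus 1 hpf was -0.63 ± 0.27 in anti-mir-34 embryos (adjusted p = 0.0646) and -0.07 ± 0.27 in mock embryos (95% interval -0.63 to 0.48).

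The inhibitor of Cdt1, gmnn (Geminin), is no member of the set and was also lower at 24 than at 1 hpf. Its mock arrays of 7 hpf (8.17, 8.68 and 7.00) overlapped those of 1 hpf. Unlike cdt1, gmnn passed the test already for 7 minus 1 hpf in anti-mir-34 embryos (-2.27, adjusted p = 0.000467). It stood at 5.24, 5.35 and 4.88 in anti-mir-34 embryos of 24 hpf, against 9.48, 8.27 and 10.23 in those of 1 hpf, and at 4.59, 5.87 and 4.99 in mock embryos of 24 hpf, against 8.22, 9.18 and 9.42 in those of 1 hpf. Its difference of 24 minus 1 hpf was -4.17 ± 0.45 in anti-mir-34 embryos (adjusted p = 1.67e-07) and -3.79 ± 0.45 in mock embryos (adjusted p = 5.88e-07). orc1, of the origin-binding factors, fell over the same interval by 2.12 ± 0.31 in anti-mir-34 embryos (adjusted p = 8.61e-06) and by 1.98 ± 0.31 in mock embryos (adjusted p = 2.02e-05). The loader cdc6 fell by 1.38 ± 0.27 in anti-mir-34 embryos (adjusted p = 0.000211) and by 1.13 ± 0.27 in mock embryos (adjusted p = 0.00136).

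The MCM genes code for subunits of one hexameric helicase, yet their messages did not move as a block. mcm3 was low at 1 hpf, below the array median of 3.68 in every array of that age, and its brighter probe set rose steeply by 7 hpf. mcm7 was higher at 24 than at 1 hpf, mcm2 rose between 7 and 24 hpf, and no change of mcm5 passed the test in any comparison of ages.

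The brighter mcm3 probe set had log2 levels of 2.04, 2.75 and 0.79 in anti-mir-34 embryos of 1 hpf, 7.88, 7.75 and 8.26 at 7 hpf, and 8.01, 7.82 and 7.90 at 24 hpf. In mock embryos the levels were -0.14, 2.34 and 2.35 at 1 hpf, 7.53, 5.96 and 8.01 at 7 hpf, and 7.41, 7.97 and 7.85 at 24 hpf. The arrays of 1 hpf lay more than 3 log2 units below all later ones, and the later ages overlapped. The difference of 7 minus 1 hpf was 6.10 ± 0.57 in anti-mir-34 embryos (adjusted p = 8.24e-08) and 5.65 ± 0.57 in mock embryos (adjusted p = 4.02e-07). From 7 to 24 hpf it was -0.05 ± 0.57 in anti-mir-34 embryos (95% interval -1.25 to 1.15) and 0.58 ± 0.57 in mock embryos (95% interval -0.62 to 1.77). Since mcm3 at 1 hpf cannot be told from background, the size of its rise depends on the scale: with 16 added to all signals it was 3.72 in anti-mir-34 and 3.06 in mock embryos, past the threshold in both.

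The second mcm3 probe set was dimmer, and at 7 hpf its group mean was 4.13 ± 0.46 in anti-mir-34 embryos and 3.42 ± 0.57 in mock embryos (SD, n = 3 each). It rose by 24 hpf as well, with 3.15 ± 0.65 for 24 minus 1 hpf in anti-mir-34 embryos (adjusted p = 0.000337) and 3.38 ± 0.65 in mock embryos (adjusted p = 0.000165). Its step of 7 minus 1 hpf passed the test in anti-mir-34 embryos (2.53 ± 0.65, adjusted p = 0.00394), and in mock embryos it was 1.44 ± 0.65 (adjusted p = 0.119). From 7 to 24 hpf the difference was 0.62 ± 0.65 in anti-mir-34 embryos (adjusted p = 0.505) and 1.95 ± 0.65 in mock embryos (adjusted p = 0.0202), a call that was lost without any of 3 of its 6 arrays (adjusted p up to 0.0753). The RefSeq gene table gives MCM3z as another name of mcm3 and MCM3m as another name of its relative mcm3l. In Xenopus, m and z stand for maternal and zygotic forms of an MCM protein. mcm3l was not analysed here, and whether the mcm3 probes also pair with it was not tested.

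The subunit mcm6 and its relative mcm6l, named MCM6z and MCM6m in the same table, moved in opposite directions. mcm6l had 2.06, 1.27 and 1.94 in anti-mir-34 embryos of 24 hpf, against 7.92, 6.81 and 6.77 in those of 1 hpf. Mock embryos had 0.17, 2.62 and -0.35 at 24 hpf, against 7.36, 6.51 and 7.25 at 1 hpf. Every array of 24 hpf lay below every array of 1 hpf, and the difference of 24 minus 1 hpf was -5.41 ± 0.57 in anti-mir-34 embryos (adjusted p = 1.19e-07) and -6.23 ± 0.57 in mock embryos (adjusted p = 1.90e-08). The other mcm6l probe set gave -7.49 in mock embryos. mcm6 went the other way over the same interval, by 2.96 ± 0.85 in anti-mir-34 embryos (adjusted p = 0.00557), with 4.44, 1.10 and 4.24 at 24 hpf and -0.15, 0.33 and 0.71 at 1 hpf. In mock embryos it was 3.64 ± 0.85 (adjusted p = 0.00108), with 4.39, 4.45 and 4.86 at 24 hpf and 2.34, -0.21 and 0.63 at 1 hpf. mcm6 was below the array median in every array of 1 and 7 hpf, and its array values of 7 and 1 hpf overlapped in both injections. mcm6l was below the array median in every array of 24 hpf. These low levels may be background, so the sizes of both changes are uncertain. Over 11 alternatives the mcm6 rise shrank to 0.74 in anti-mir-34 and 1.11 in mock embryos. Over 12 alternatives the mcm6l difference shrank to -3.04 in anti-mir-34 embryos, and it shrank in mock embryos too. All these alternatives passed the threshold. The plot of MCM genes by age sets the levels of mcm6 and mcm6l beside those of mcm3 and mcm2. The highest mcm6l value of mock embryos at 24 hpf, 2.62, belonged to replicate 2, which also had the highest maternal median of that group (2.93, against -0.10 as the lowest in the group).

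**Figure D2:**
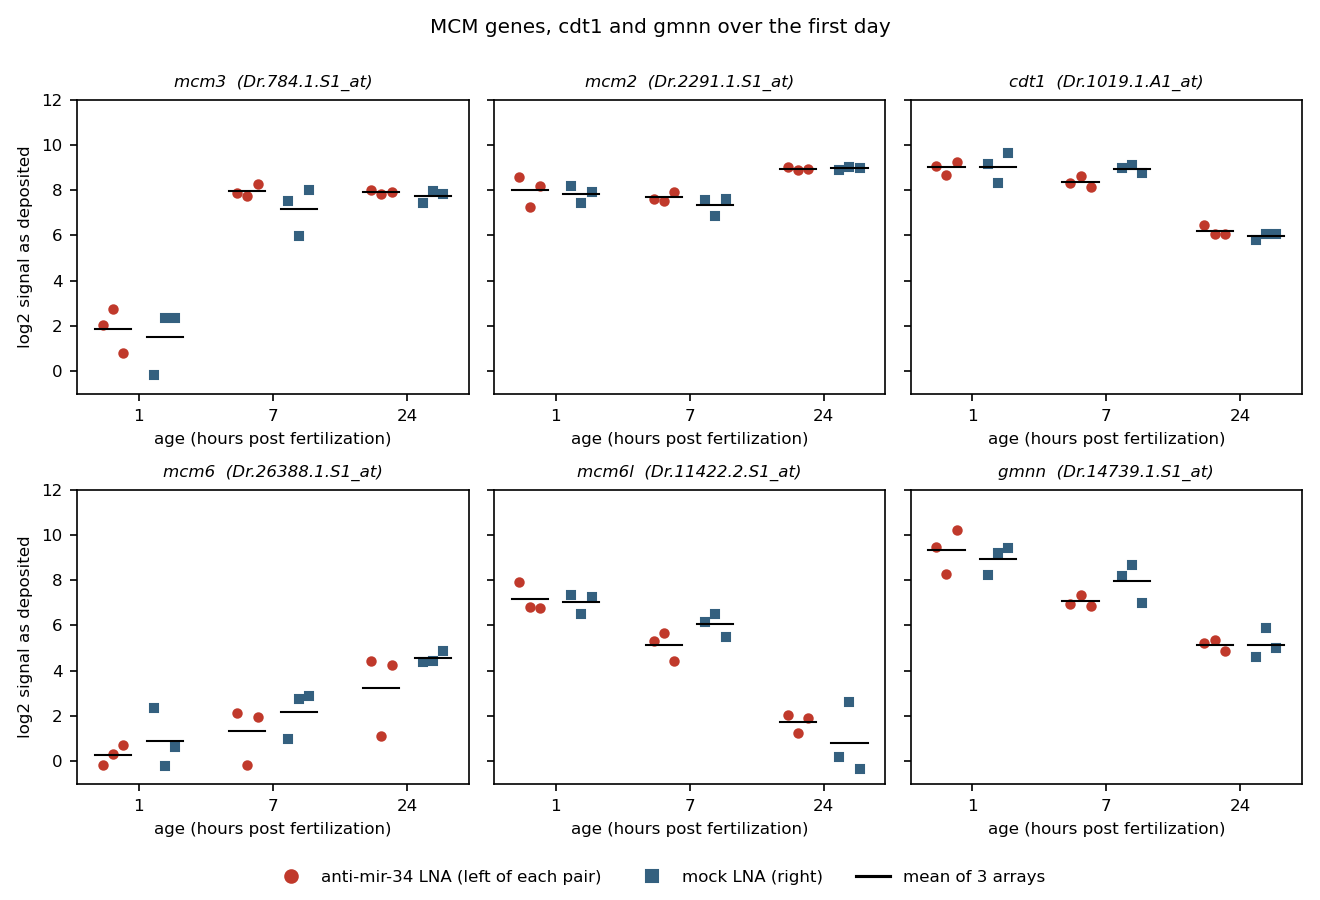
Log2 signal as deposited (vertical axis) by age in hours post fertilization (horizontal axis) of mcm3, mcm2, cdt1, mcm6, mcm6l and gmnn, with 3 anti-mir-34 arrays (circles, left), 3 mock arrays (squares, right) and means (bars). mcm6l falls and mcm6 rises between 1 and 24 hpf, while cdt1 and gmnn are both lowest at 24 hpf. Levels are to be read within a panel, since probe sets differ in how strongly they hybridise.

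mcm2, the subunit that also binds histones, had log2 levels of 8.60, 7.27 and 8.16 in anti-mir-34 embryos of 1 hpf, 7.61, 7.52 and 7.93 at 7 hpf, and 9.01, 8.90 and 8.95 at 24 hpf. The mock embryos had 8.18, 7.45 and 7.91 at 1 hpf, 7.55, 6.84 and 7.59 at 7 hpf, and between 8.89 and 9.03 in the 3 arrays of 24 hpf. The 24 hpf arrays lay above all others and close together, while the earlier ages overlapped. Its difference of 24 minus 7 hpf was 1.26 ± 0.28 in anti-mir-34 embryos (adjusted p = 0.00137) and 1.65 ± 0.28 in mock embryos (adjusted p = 7.92e-05).

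mcm7, a subunit of the helicase core, had 5.56, 7.02 and 6.56 in anti-mir-34 embryos of 1 hpf, 8.76, 8.42 and 8.33 at 7 hpf, and 8.78, 8.74 and 8.81 at 24 hpf. In mock embryos it had 6.86, 7.62 and 7.54 at 1 hpf, 8.49, 7.47 and 8.38 at 7 hpf, and 8.71, 8.59 and 8.37 at 24 hpf. The 1 hpf arrays were separate from the later ones in anti-mir-34 embryos and overlapped those of 7 hpf in mock embryos. The difference of 7 minus 1 hpf was 2.12 ± 0.31 in anti-mir-34 embryos (adjusted p = 2.04e-05) and 0.77 ± 0.31 in mock embryos (adjusted p = 0.0814). The low mock array of 7 hpf was replicate 2. It was also the lowest of its group for the brighter mcm3 probe set (5.96), though not for the second, and for mcm2 (6.84). It had the lowest gastrula marker median (4.98). The summed signal of the 10 gastrula genes spanned 1037 to 1797 over the anti-mir-34 arrays of 7 hpf and 387 to 1404 over the mock arrays. Without that array the mcm7 step in mock embryos was 1.09 (adjusted p = 0.0150, against 0.0150 to 0.305 over its 12 alternatives). This was still smaller than the 2.12 of anti-mir-34 embryos. The part of developmental progress in this was not tested. The injections also differed at the start of the step. Anti-mir-34 minus mock was -0.95 ± 0.31 at 1 hpf (adjusted p = 0.185) and 0.39 ± 0.31 at 7 hpf (adjusted p = 0.625).

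The 18 values of mcm5, another subunit of the ring, lay between 7.40 and 8.53. Its difference of 24 minus 1 hpf was 0.03 ± 0.24 in anti-mir-34 embryos (95% interval -0.47 to 0.53) and 0.04 ± 0.24 in mock embryos (95% interval -0.46 to 0.54). For 7 minus 1 hpf it was -0.42 in anti-mir-34 embryos (adjusted p = 0.173) and -0.48 in mock embryos (0.163). For 24 minus 7 hpf it was 0.45 in anti-mir-34 embryos (adjusted p = 0.159) and 0.52 in mock embryos (0.0903). Arrays did not overlap in these steps, apart from 7 and 1 hpf in mock embryos. Each mock step passed in 1 of 6 fits with 1 array left out (adjusted p = 0.0403 and 0.0389). mcm4, like mcm6 a subunit outside the set, passed no test between ages, whereas mcm6 did. For 24 minus 1 hpf mcm4 differed by 0.31 ± 0.23 in anti-mir-34 embryos (adjusted p = 0.269) and 0.33 ± 0.23 in mock embryos (adjusted p = 0.239).

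pcna and pclaf followed different courses. pcna, which forms the clamp, fell by under 1 log2 unit between 7 and 24 hpf, while pclaf, which codes for a small factor that binds PCNA, fell already between 1 and 7 hpf in mock embryos. pcna had array values of 10.65 to 10.96 at 1 hpf, 10.83 to 11.02 at 7 hpf and 10.17 to 10.31 at 24 hpf in anti-mir-34 embryos. In mock embryos its ranges were 10.43 to 10.94 at 1 hpf, 10.77 to 11.04 at 7 hpf and 10.18 to 10.28 at 24 hpf. All its 24 hpf arrays were below all earlier ones. The difference of 24 minus 7 hpf was -0.72 ± 0.16 in anti-mir-34 embryos (adjusted p = 0.00148) and -0.70 ± 0.16 in mock embryos (adjusted p = 0.00145).

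pclaf had 6.59, 9.57 and 8.36 in anti-mir-34 embryos of 1 hpf, 8.87, 8.52 and 8.79 at 7 hpf, and 8.40, 8.71 and 8.34 at 24 hpf. In mock embryos it had 10.70, 10.44 and 10.43 at 1 hpf, 9.17, 9.22 and 8.62 at 7 hpf, and 8.28, 8.48 and 8.54 at 24 hpf. The anti-mir-34 arrays of 1 hpf were widely spread and overlapped the later ages, while the mock arrays of 1 hpf were close together and above every other array. In anti-mir-34 embryos the difference of 24 minus 1 hpf was 0.31 ± 0.43 (95% interval -0.59 to 1.21), and its sign turned when replicate 1 of 1 hpf was left out (-0.49). In mock embryos pclaf fell by 1.52 ± 0.43 between 1 and 7 hpf (adjusted p = 0.0131), and its difference of 24 minus 1 hpf was -2.09 ± 0.43 (adjusted p = 0.000336). Without mock replicate 3 of 7 hpf the first of these was -1.33 (adjusted p = 0.0673, against 0.00325 to 0.0673 over its 12 alternatives).

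dna2, a nuclease and helicase that trims long flaps of the lagging strand, was followed by a pair of probe sets that share the gene and so are no independent evidence of each other. The brighter had 5.96, 6.00 and 6.75 in anti-mir-34 embryos of 1 hpf, 4.86, 5.03 and 4.27 at 7 hpf, and 4.67, 3.49 and 4.39 at 24 hpf. In mock embryos it had 4.27, 4.55 and 4.92 at 1 hpf, 5.06, 5.73 and 4.31 at 7 hpf, and 3.39, 4.08 and 4.32 at 24 hpf. The highest values were those of the anti-mir-34 arrays of 1 hpf. In those embryos dna2 fell by 1.51 ± 0.40 between 1 and 7 hpf (adjusted p = 0.00514), and the second probe set by 1.54 ± 0.57 (adjusted p = 0.0363), a call that was lost without any of 4 of its 6 arrays (adjusted p up to 0.165). The difference of 24 minus 1 hpf there was -2.05 ± 0.40 for the brighter (adjusted p = 0.000203) and -2.84 ± 0.57 for the second (adjusted p = 0.000243). In mock embryos the brighter probe set differed by 0.45 ± 0.40 for 7 minus 1 hpf (95% interval -0.39 to 1.29). Its difference of 24 minus 1 hpf there was -0.65 ± 0.40 (adjusted p = 0.178). That of the second was -1.54 ± 0.57 (adjusted p = 0.0267), a call kept in 3 of 6 fits with 1 array left out. For the brighter, a fall of 1.10 ± 0.40 came between 7 and 24 hpf (adjusted p = 0.0325). That later fall rested on few arrays: leaving out any of 4 of its 6 arrays ended the call, with adjusted p up to 0.178.

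tyms, thymidylate synthase, had 8.62, 7.83 and 8.56 in anti-mir-34 embryos of 1 hpf, 6.79, 8.01 and 6.27 at 7 hpf, and 7.32, 7.10 and 7.12 at 24 hpf. Its levels in mock embryos were 7.90, 7.00 and 7.36 at 1 hpf, 6.34, 6.60 and 6.95 at 7 hpf, and 6.89, 7.26 and 7.34 at 24 hpf. All 3 ages overlapped in mock embryos apart from 7 and 1 hpf, and 7 and 1 hpf overlapped in anti-mir-34 embryos through a single array each. tyms at 7 hpf differed from 1 hpf by -1.31 ± 0.34 in anti-mir-34 embryos (adjusted p = 0.00454) and by -0.79 ± 0.34 in mock embryos (adjusted p = 0.102). For 24 minus 1 hpf it was -1.15 ± 0.34 in anti-mir-34 embryos, without overlap (adjusted p = 0.00700), and -0.26 ± 0.34 in mock embryos (adjusted p = 0.547). Both steps of anti-mir-34 embryos started from a mean of 8.33 at 1 hpf, against 7.42 in mock embryos.

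The shares of the 11 probe sets that moved with age stood beside a high background. In anti-mir-34 embryos 6 of 11 passed the adjusted threshold of 0.05 for 7 against 1 hpf, where 39.4% of all 15502 probe sets did, 3 of 11 for 24 against 7 hpf, where 35.9% did, and 9 of 11 for 24 against 1 hpf, where 57% did. In mock embryos it was 2 of 11 against 24% for 7 against 1 hpf, 6 of 11 against 43% for 24 against 7 hpf, and 8 of 11 against 56.3% for 24 against 1 hpf. The median difference of 24 minus 1 hpf was 0.03 in anti-mir-34 embryos (all probe sets -0.21) and -0.26 in mock embryos (all probe sets -0.21). Neighbouring steps share the arrays of 7 hpf. Without replicate 1 or replicate 2 of the mock arrays of 7 hpf, the count for 24 against 7 hpf was 3 of 11, and for 7 against 1 hpf it was 1 of 11 without replicate 3. The shares of all probe sets that passed in those fits are not given here.

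The injection with anti-mir-34 LNA was compared with the mock injection at each age. At 1 hpf pclaf was lower and dna2 higher in anti-mir-34 embryos, and the other members did not pass the test. 2 of 11 probe sets passed, where 1.23% of all probe sets did, and 5 had an unadjusted p below 0.05, where 9.83% of all did. In 3 of 11 the anti-mir-34 and mock arrays did not overlap, as in 12.7% of all probe sets. Both dna2 probe sets are among the 5 and among the 3. The members were chosen with earlier results of these data known. A share above that of all probe sets is therefore no independent evidence about replication genes. The median difference over the 11 was 0.11, and over all probe sets 0.04. Embryos of 1 hpf had been injected less than 1 hour earlier.

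pclaf at 1 hpf averaged 8.17 ± 1.50 in anti-mir-34 embryos and 10.52 ± 0.16 in mock embryos (SD, n = 3 each), a difference of -2.35 ± 0.43 (limma adjusted p = 0.00722), or 5.10-fold. The anti-mir-34 arrays spanned 6.59 to 9.57, and the size moved with single arrays of that group: the difference was -1.56 without replicate 1 (adjusted p = 0.00816) and -3.05 without replicate 2 (adjusted p = 4.59e-05). The call was kept when any 1 array was left out and was lost with the variance estimated without letting it depend on the signal level (no intensity trend, adjusted p = 0.0641) or from the 6 arrays of 1 hpf alone (0.337). Over its 12 alternatives the adjusted p ran from 4.59e-05 to 0.337.

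The brighter dna2 probe set averaged 6.24 ± 0.45 in anti-mir-34 embryos and 4.58 ± 0.33 in mock embryos (SD, n = 3 each), a difference of 1.65 ± 0.40 (adjusted p = 0.0470). Its second probe set had 5.16, 4.51 and 5.31 in anti-mir-34 embryos and 3.41, 3.17 and 3.93 in mock embryos, again without overlap, with 1.49 ± 0.57 (adjusted p = 0.299). The dna2 call sat at the threshold. It was lost without anti-mir-34 replicate 1 (adjusted p = 0.0833) or 3 (0.185), and without mock replicate 1 (0.176), 2 (0.120) or 3 (0.0652). It was also lost without an intensity trend (0.112), from the 6 arrays alone (0.219) and with the replicate number as a block. Of its 12 alternatives 4 kept the call, with 0.0141 as the lowest adjusted p.

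mcm7 was next by p, with 5.56, 7.02 and 6.56 in anti-mir-34 embryos and 6.86, 7.62 and 7.54 in mock embryos. The groups overlapped through 1 array each, and the difference was -0.95 ± 0.31 (unadjusted p = 0.00646, adjusted p = 0.185). Without anti-mir-34 replicate 2 it passed the threshold (-1.28, adjusted p = 0.0303), and without anti-mir-34 replicate 1 it was -0.54 (adjusted p = 0.716), which were the lowest and highest adjusted p of its 12 alternatives. tyms differed by 0.92 ± 0.34 (adjusted p = 0.283), with overlapping arrays. For cdt1, mcm2, mcm5 and pcna the differences were -0.02, 0.17, 0.04 and 0.11, and their 95% intervals lay within -0.57 and 0.75. The mcm3 probe sets, dim at this age, had wider intervals, of -0.86 to 1.54 for the brighter and -1.74 to 0.97 for the other.

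**Figure D3:**
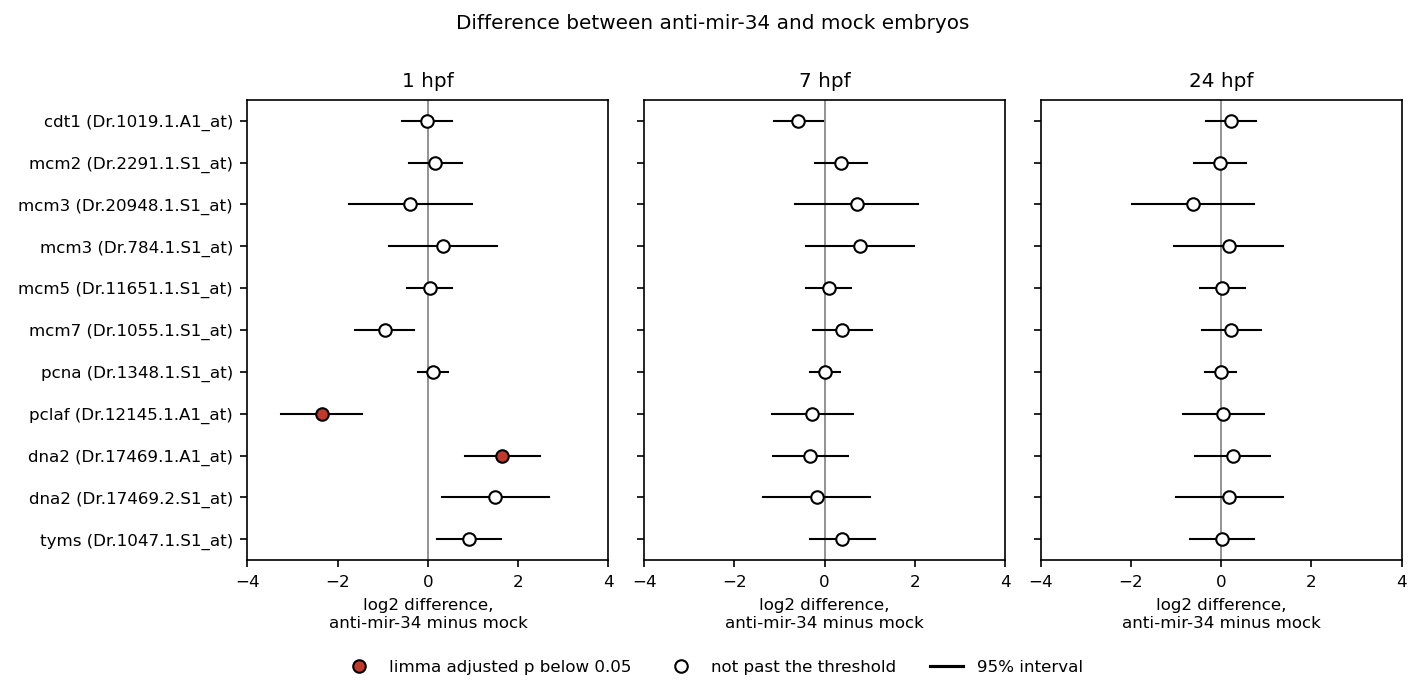
Log2 difference, anti-mir-34 minus mock (horizontal axis), of the 11 probe sets (rows) at 1, 7 and 24 hpf, with 95% intervals from limma. Filled points passed the adjusted threshold of 0.05: pclaf at -2.35 and 1 dna2 probe set at 1.65, both at 1 hpf, and no point at 7 or 24 hpf.

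At 7 hpf none of the 11 probe sets passed by limma, where 0.0129% of all did, and 1 had an unadjusted p below 0.05, where 12.4% of all did. This was cdt1, with 8.33, 8.61 and 8.16 in anti-mir-34 embryos and 8.97, 9.10 and 8.76 in mock embryos. Its groups did not overlap, which 15.6% of all probe sets shared, and the difference was -0.58 ± 0.27 (adjusted p = 0.386). The summed signal of the 11 maternal genes spanned 1480 to 3472 over the anti-mir-34 arrays of 7 hpf and 2373 to 5408.5 over the mock arrays. The part of this in the cdt1 difference was not tested. pclaf differed by -0.27 ± 0.43 (95% interval -1.17 to 0.63) and the brighter dna2 probe set by -0.31 ± 0.40 (95% interval -1.15 to 0.53). At 24 hpf none passed by limma, where 0.0129% of all did, none had an unadjusted p below 0.05, where 4.43% of all did, and the 11 differences lay between -0.62 and 0.25. Only mcm7 had groups without overlap at 24 hpf, where 9.18% of all probe sets did, with 8.78, 8.74 and 8.81 in anti-mir-34 embryos and 8.71, 8.59 and 8.37 in mock embryos (0.22 ± 0.31).

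Whether the injection difference itself changed between 1 and 7 hpf was tested as an interaction. None of the 11 probe sets passed the adjusted threshold by limma, where 0.271% of all did, and 3 had an unadjusted p below 0.05, where 11.8% of all did. The difference at 7 hpf minus that at 1 hpf was 2.08 ± 0.61 for pclaf (adjusted p = 0.174), -1.96 ± 0.57 for the brighter dna2 probe set (adjusted p = 0.169) and 1.35 ± 0.44 for mcm7 (adjusted p = 0.217). With 1 array left out, pclaf passed without anti-mir-34 replicate 2 of 1 hpf (2.78, adjusted p = 0.00412, against 0.00412 to 0.335 over its 18 alternatives), and dna2 without mock replicate 3 of 7 hpf (-2.33, adjusted p = 0.0482, against 0.0482 to 0.425). The mock arrays of 1 hpf serve both the injection difference at 1 hpf and the step of 7 minus 1 hpf in mock embryos. For pclaf these were -2.35 and -1.52, and for the brighter dna2 probe set 1.65 and 0.45. The anti-mir-34 arrays of 1 hpf likewise serve the injection difference at 1 hpf and the step of 7 minus 1 hpf in anti-mir-34 embryos. That step was 0.56 for pclaf, -1.51 for the brighter dna2 probe set and 2.12 for mcm7. For mcm7 the injection difference at 1 hpf was -0.95. Neither step is independent of the injection difference at 1 hpf.

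The wider replication machinery was read from 7 lists by role, of which 96 of 134 other genes were on the array. In anti-mir-34 embryos 16 of 96 genes were higher and 39 lower at 7 than at 1 hpf, where 19.8% and 25.4% of all genes with a symbol were. In mock embryos 14 were higher and 26 lower, where 14.3% and 13.8% of all were. At 24 against 1 hpf 21 were higher and 39 lower in anti-mir-34 embryos, where 26.5% and 35.4% of all genes were, with a median difference of -0.37 over these genes and -0.32 over all. In mock embryos 21 were higher and 44 lower, where 26% and 35.8% were, with medians of -0.56 over these genes and -0.37 over all. Genes that fire the helicase and travel with the fork, such as the Cdc45 and GINS subunits, were at 24 against 1 hpf lower in 7 and higher in 1 of 11 cases in anti-mir-34 embryos, and lower in 8 and higher in none in mock embryos. The higher one, picked after its value was seen, was gins4 (0.85 ± 0.34, adjusted p = 0.0391). cdc45 fell already between 1 and 7 hpf, by 2.78 ± 0.23 in anti-mir-34 embryos (adjusted p = 1.77e-08) and by 2.68 ± 0.23 in mock embryos (adjusted p = 4.45e-08). gins2 fell over this step by 3.33 ± 0.39 in anti-mir-34 embryos (adjusted p = 1.24e-06) and by 2.44 ± 0.39 in mock embryos (adjusted p = 8.17e-05). Of the 13 licensing genes outside the set, 7 were lower and 1 higher at 24 against 1 hpf in anti-mir-34 embryos, and 9 were lower and 1 higher in mock embryos, and the higher one was mcm6 in both. The polymerases and primase had 2 higher and 3 lower of 9 in anti-mir-34 embryos and 1 higher and 4 lower in mock embryos.

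Genes of nucleotide supply, the role of tyms, had 5 higher and 5 lower of 16 at 24 against 1 hpf in anti-mir-34 embryos. Their median was 0.0042. In mock embryos 7 were higher and 4 lower, with a median of -0.40, below 0 although more genes passed as higher. These counts read 1 probe set per gene, and for tk1 the probe sets went opposite ways. The one that stood for tk1 had 4.01, 3.35 and 3.66 in mock embryos of 1 hpf, and 5.85, 5.91 and 6.09 at 24 hpf. Its other probe set had 6.49, 5.58 and 7.12 in mock embryos of 1 hpf, and 2.28, 1.49 and 0.43 at 24 hpf. For this list and those below, the shares of all genes at 24 against 1 hpf serve as background. These were 26.5% higher and 35.4% lower in anti-mir-34 embryos, and 26% higher and 35.8% lower in mock embryos. rrm1, a subunit of ribonucleotide reductase, fell between 1 and 7 hpf by 0.83 ± 0.30 in anti-mir-34 embryos (adjusted p = 0.0333), a call lost without any of 4 of its 6 arrays (adjusted p up to 0.187), and by 1.62 ± 0.30 in mock embryos (adjusted p = 0.000393). From 7 to 24 hpf it differed by 0.23 ± 0.30 in anti-mir-34 embryos (adjusted p = 0.597) and rose by 1.10 ± 0.30 in mock embryos (adjusted p = 0.00522). Clamp loading, the single-strand binding protein RPA and Okazaki fragment processing, the roles next to pcna and dna2, had 4 higher and 5 lower of 16 at 24 against 1 hpf in anti-mir-34 embryos and 5 higher and 4 lower in mock embryos. There the flap nuclease fen1 fell between 1 and 24 hpf by 1.26 ± 0.21 in anti-mir-34 embryos (adjusted p = 3.36e-05) and by 1.28 ± 0.21 in mock embryos (adjusted p = 2.93e-05). rnaseh2c, a subunit of ribonuclease H2, rose between 1 and 7 hpf by 3.62 ± 0.40 in anti-mir-34 embryos (adjusted p = 6.10e-07) and by 2.86 ± 0.40 in mock embryos (adjusted p = 1.86e-05). It started from 2.99, 3.26 and 2.09 in anti-mir-34 and 2.35, 3.70 and 3.06 in mock embryos of 1 hpf. These levels were near or below the array median and may be background, so the size of the rise is uncertain. Chromatin assembly behind the fork had 2 higher and 4 lower of 10 in each injection at 24 against 1 hpf. The histone stem-loop binding gene slbp2 fell over this interval by 9.21 ± 0.85 in anti-mir-34 embryos (adjusted p = 1.83e-08) and by 8.03 ± 0.85 in mock embryos (adjusted p = 1.19e-07). In S phase control 6 of 21 were higher and 8 lower in anti-mir-34 embryos, and 5 higher and 11 lower in mock embryos. Among those lower at 24 than at 1 hpf were the cyclins ccna1 and ccne1. ccna1 had -10.23 ± 0.90 in anti-mir-34 embryos (adjusted p = 1.03e-08) and -8.81 ± 0.90 in mock embryos (adjusted p = 7.79e-08). ccne1 had -3.12 ± 0.44 in anti-mir-34 embryos (adjusted p = 4.15e-06) and -3.70 ± 0.44 in mock embryos (adjusted p = 4.90e-07). ccna1 also belongs to the maternal marker genes. Most levels of slbp2 and ccna1 at 24 hpf were below the array median and may be background, so their sizes are uncertain. Mock replicate 2 of 24 hpf stood apart, with 4.92 for slbp2 and 5.08 for ccna1. The other mock arrays had 1.13 and -0.13 for slbp2 and -0.21 and -0.10 for ccna1. With 1 array left out the ccna1 difference in mock embryos reached -10.56. Over 12 alternatives slbp2 shrank to -6.09 in anti-mir-34 and -5.43 in mock embryos, and ccna1 to -6.54 and -5.83. All these alternatives passed the threshold.

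**Figure D4:**
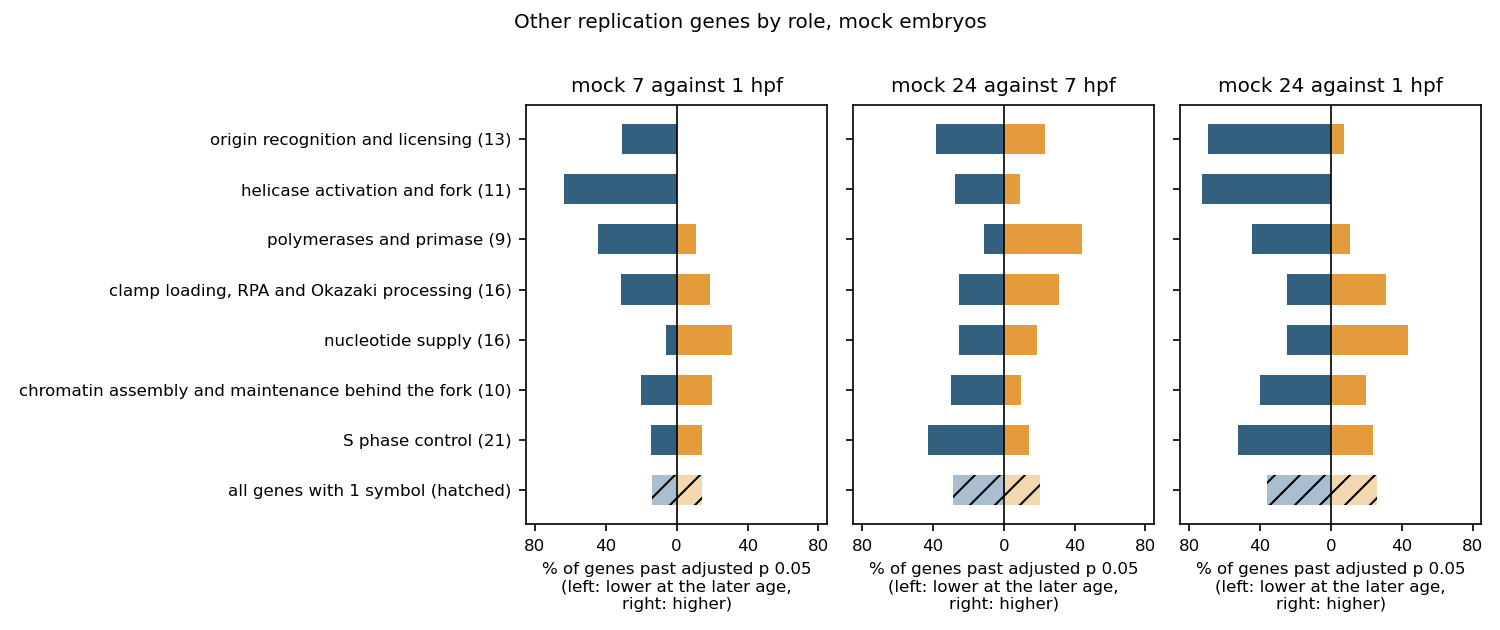
Share of genes past the adjusted threshold of 0.05 in mock embryos, in percent of the genes of each list on the array (numbers in brackets), drawn to the left for lower and to the right for higher at the later age, for 7 against 1, 24 against 7 and 24 against 1 hpf. The hatched row is all genes with a symbol. Each gene is read from its probe set with the highest mean. Helicase activation and fork genes have 8 of 11 lower and none higher at 24 against 1 hpf, and nucleotide supply has 7 of 16 higher.

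Between the injections only 1 of these 96 genes passed at 1 hpf, where 1.58% of all genes with a symbol did, and 0 passed at 7 and at 24 hpf by limma. An unadjusted p below 0.05 was found for 7 of the 96 at 1 hpf, 23 at 7 hpf and 2 at 24 hpf, where 10.6%, 14.7% and 4.39% of all genes with a symbol had one at those ages. Without mock replicate 3 of 7 hpf, 9 of the 96 passed at 7 hpf. The share of all genes that passed in that fit is not given here, so this count has no background beside it. The gene that passed at 1 hpf was the checkpoint kinase gene chek1, with 5.71, 7.41 and 5.62 in anti-mir-34 embryos of 1 hpf and 8.25, 7.52 and 7.96 in mock embryos of 1 hpf. Its groups did not overlap and the difference was -1.66 ± 0.35 (adjusted p = 0.0191). Without mock replicate 1 (adjusted p = 0.103) or 3 (0.0640), or anti-mir-34 replicate 1 (0.110) or 3 (0.0929), the call was lost, and over its 12 alternatives the adjusted p ran from 0.000114 to 0.357.

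For each member the transcripts with the most similar course over the 18 arrays were looked up, as Pearson's r across arrays that share their age groups. cdt1 was closest to cpeb1b, a cytoplasmic polyadenylation factor gene (r = 0.989), and mcm3 to the plakophilin gene pkp3a (r = 0.997) and to rgma (0.989). pkp3a had group means of 7.59 in anti-mir-34 embryos of 7 hpf, against 0.77 in those of 1 hpf, and of 6.69 in mock embryos of 7 hpf, against 0.26 in those of 1 hpf. mcm7 was closest to the base excision repair gene apex1 (0.973), mcm2 to cntfr (0.933), pcna to rbm4.3 (0.951) and pclaf to nucb1 (0.958). The likeness was weaker for dna2 (snx9b, 0.878), tyms (cpa5, 0.85) and mcm5 (gpn1, 0.808). At 1 hpf the closest transcripts of pclaf, dna2 and mcm7 had group means that differed in the same direction as the member. nucb1 averaged 7.00 in anti-mir-34 and 9.37 in mock embryos of 1 hpf. snx9b averaged 7.58 and 6.29 there, and apex1 4.84 and 6.23. They were picked by likeness over all 18 arrays, so this is no independent evidence.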

How the data were processed

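RNA of 18 whole-embryo samples was measured on Affymetrix arrays. Per the labels' protocols, RNA was extracted with Trizol and labelled with biotin. The deposited values are log2 signals. Their scale was read from the values, and GCOS is named in the submitters' processing notes without a version. How probes were summarised and normalized is not stated there. Precision is limited by 3 arrays per group.

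Groups came from the sample labels. The deposited log2 values were fitted as they stand with limma 3.58.1 in R 4.3.3: 1 mean per group over all 18 arrays, with an intensity trend, no filter and no control probe sets (115 left out). Two-sided p-values were adjusted by Benjamini-Hochberg over the 15502 probe sets of each comparison, and 0.05 was the threshold. The scripts were tested on simulated data. An exact permutation test of 3 against 3 arrays cannot go below 0.1. Symbols came from the platform annotation (10795 probe sets with 1 symbol, 135 with several, 4572 with none), checked against RefSeq's table of GRCz12tu. 131 values were missing in all, none in the members.

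The members and lists were chosen with earlier results of these data known. All members are named. Of other replication genes, the 8 with the largest called differences per comparison were eligible, with mcm4, mcm6, gmnn, cdc6, orc1, rrm1 and fen1 as fixed names (rrm2 and dhfr, also fixed, were not analysed here), and the probe set with the highest mean stood for a gene. Alternatives were 16 added to the signals, dim probe sets left out, no intensity trend, quantile normalization, a replicate block, only the groups compared, and each array left out.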

Additional observations from a re-analysis of the deposited data

How the results depend on the processing

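Of the 36 differences of single member probe sets that passed the threshold, 36 were kept with dim probe sets left out, 36 with quantile normalization, 35 with 16 added to the signals, 35 with the replicate block, 33 without the intensity trend and 30 with only the groups compared, and none of the 36 changed sign under these. The count of members at 1 hpf between the injections, 2 of 11, became 1 with the replicate block, 0 without the intensity trend, 0 with only the groups compared, and 1 to 3 with 1 array left out. By gene, with the probe sets of a gene averaged, it was 1. For the other replication genes that count was 1 and became 0 without the trend, 0 with only the groups compared and 0 to 2 with 1 array left out. At 7 hpf it was 0, and 0 to 9 with 1 array left out, with 9 without mock replicate 3, where the share of all genes is not given. The interaction count was 1 of 96 for the other genes, where 0.318% of all genes with a symbol passed. It was 0 without the trend, 0 with only the groups compared and 0 to 3 with 1 array left out. For the members it was 0 of 11, where 0.271% of all probe sets passed, and 0 to 1 with 1 array left out. With 1 array left out, the members' counts in anti-mir-34 embryos were 5 to 9 for 7 against 1 hpf, 3 to 4 for 24 against 7 hpf and 9 to 9 for 24 against 1 hpf. In mock embryos they were 1 to 3 for 7 against 1 hpf, 3 to 7 for 24 against 7 hpf and 6 to 8 for 24 against 1 hpf. The cause of these shifts was not tested, and fits with 1 array left out also have fewer arrays. The shares of all probe sets that passed in those fits are not given here.

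The difference of pclaf between ages in anti-mir-34 embryos turned sign without replicate 1 of 1 hpf, to -0.24 for 7 minus 1 hpf and to -0.49 for 24 minus 1 hpf. Without replicate 2 of 1 hpf these were 1.26 and 1.01. With 16 added, the dimmer dna2 probe set passed between the injections at 1 hpf (0.81, adjusted p = 0.0451) and no longer passed for 24 against 1 hpf in mock embryos (-0.42, adjusted p = 0.0781). Same-numbered anti-mir-34 and mock arrays deviated together by r = 0.0147 to 0.277, over 0.1 in 3 of 9 pairs, though 9 of 9 correlated best with their own number, a hint from the data and not from the design. The samples were taken to share only a number, and the replicate block left the brighter dna2 probe set at an adjusted p of 0.0573 at 1 hpf. Of 110 member differences, 57 passed under no setting and had an unadjusted p of 0.05 or more, and 32 of these changed sign under some alternative.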
